A study of Mus musculus with 9 samples.

Results

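Rab GTPases and SNARE proteins carry vesicles between the membranes of a cell, and their transcripts were followed here through mammary gland development in the mouse. Member genes were chosen by name alone, as probe sets of the array with a single gene symbol that starts with Rab, Vamp, Stx or Snap and a digit. The rule found 79 probe sets of 60 genes, of 8251 genes with a single symbol on the array. A gene read by several probe sets is given by the one with the highest signal averaged over the stage means. The 60 genes were 33 Rab GTPases, 4 proteins named after a Rab (Rab3ip, Rab3il1, Rab5if and Rab11fip5), 10 syntaxins, 7 VAMPs, 3 SNAPs, 2 antisense transcripts (Rab10os and Rab26os) and Snap91, an endocytic clathrin adaptor that shares only the name and is no SNARE.

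A Rab GTPase switches between a GDP-bound and a GTP-bound form, and in the GTP-bound form it marks a membrane and recruits the motors, tethers and other effectors that move a vesicle to its target. SNARE proteins then join the vesicle (mostly VAMPs) to the target membrane (syntaxins and SNAPs), and the assembly of their helices drives fusion. In the lactating gland the secretory alveolar cells release caseins and lactose by exocytosis at the apical membrane and release milk fat as lipid droplets wrapped in that membrane, so both routes depend on membrane traffic.

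The study hybridised RNA of the whole inguinal (No4) mammary gland of wild type C57BL/6J females to MG-U74Av2 oligonucleotide arrays. Puberty was 6 weeks of age (labelled virgin, 3 arrays), pregnancy was day 14 (2 arrays), lactation was day 10 after birth (2 arrays) and involution was day 4 after the pups were weaned (2 arrays). No treatment is labelled, the replicates are labelled biological and came from separate females, and the glands were not dissociated, so each array averages over epithelium, fat, blood vessels and immune cells. Values are array signals in linear units, scaled to the same median on each array, and a signal says how a single probe set changed between stages, not how the level of a gene compares with that of another gene.

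Across the 9 arrays, 12422 probe sets remained without controls and 9782 had a mean signal above 20 in at least 1 stage and were tested. Log2 signals correlated at 0.947 to 0.975 within a stage and at 0.724 to 0.935 between stages. Stages differed in tissue makeup. The summed signal of 5 measured white adipocyte markers ran from 1890 to 2314 at lactation, against 5671 to 12303 on the other 7 arrays, and 5 of the 5 were lower at lactation. The 6 milk secretion markers summed to 106150 to 136669 at lactation, against 464 to 23293 elsewhere. Of 8 luminal epithelium markers, 3 were higher and 2 lower at lactation, with sums of 1988 to 3457 at puberty, 5686 to 6504 at pregnancy, 4452 to 5258 at lactation and 3311 to 4865 at involution. T cell markers (4 of 4), B cell and plasma cell markers (3 of 4) and macrophage markers (3 of 5) were lower at lactation than the mean of the other stages, and skeletal muscle markers summed to 9265 to 21437 at puberty against 434 to 1259 at the later stages. In whole glands fewer cells of a type and less RNA per cell cannot be told apart, and the part of tissue makeup in the values below was not tested.

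Of the 60 genes, 54 were tested. The 6 others, Rab23, Rab33a, Rab3b, Snap25, Snap91 and Stx1a, stayed low in every stage, with no array above 30.6 (the highest was 3.84 for Snap25 and 8.92 for Rab3b). Snap25 and Stx1a of the presynaptic membrane and the adaptor Snap91 are best known from neurons. Signals of 20 or less were set to 20 before the log2 was taken, and 13.2% to 15.5% of the tested probe sets lay at this floor on an array. Among the tested members Rab17, Rab20, Rab35, Rab8b and Vamp1 lay at the floor on every array of at least 1 stage, and their fold changes against such a stage are lower bounds. Fold changes are taken between means of log2 values, which are geometric means of the signals. The only exception is the fold of the highest over the lowest stage, which uses arithmetic stage means.

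Expression differed between the 4 stages for 28 of the 54 tested members (51.9%, limma's moderated F test, adjusted p under 0.05), and the same held for 51.6% of all tested probe sets. The share of changed members was thus near that of all tested probe sets, but the 2 sets are unlike. Each member was read by its brightest probe set, while the background also holds dim and repeated probe sets. Of the 5548 probe sets with a mean signal above 100 in at least 1 stage, 3859 passed the F test. Under that filter 22 members passed it. The same limit holds for the shares of all tested probe sets given below. Most of the changed members peaked at lactation. Of the 28, 21 (75%) had their highest stage mean at lactation, 5 at involution, 2 at pregnancy and 0 at puberty, whereas 44.1% of all changed probe sets peaked at lactation. The lowest mean fell at puberty for 13 of the 28 (46.4%, against 25.2% of all), at involution for 8, at lactation for 5 and at pregnancy for 2. The highest stage exceeded the lowest by 2-fold or more in 20 of the 28 (71.4%), against 76.3% of all changed probe sets. These folds were taken between arithmetic stage means, with means below 20 raised to 20. The heat map of all tested members shows these profiles array by array.

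**Figure D1:**
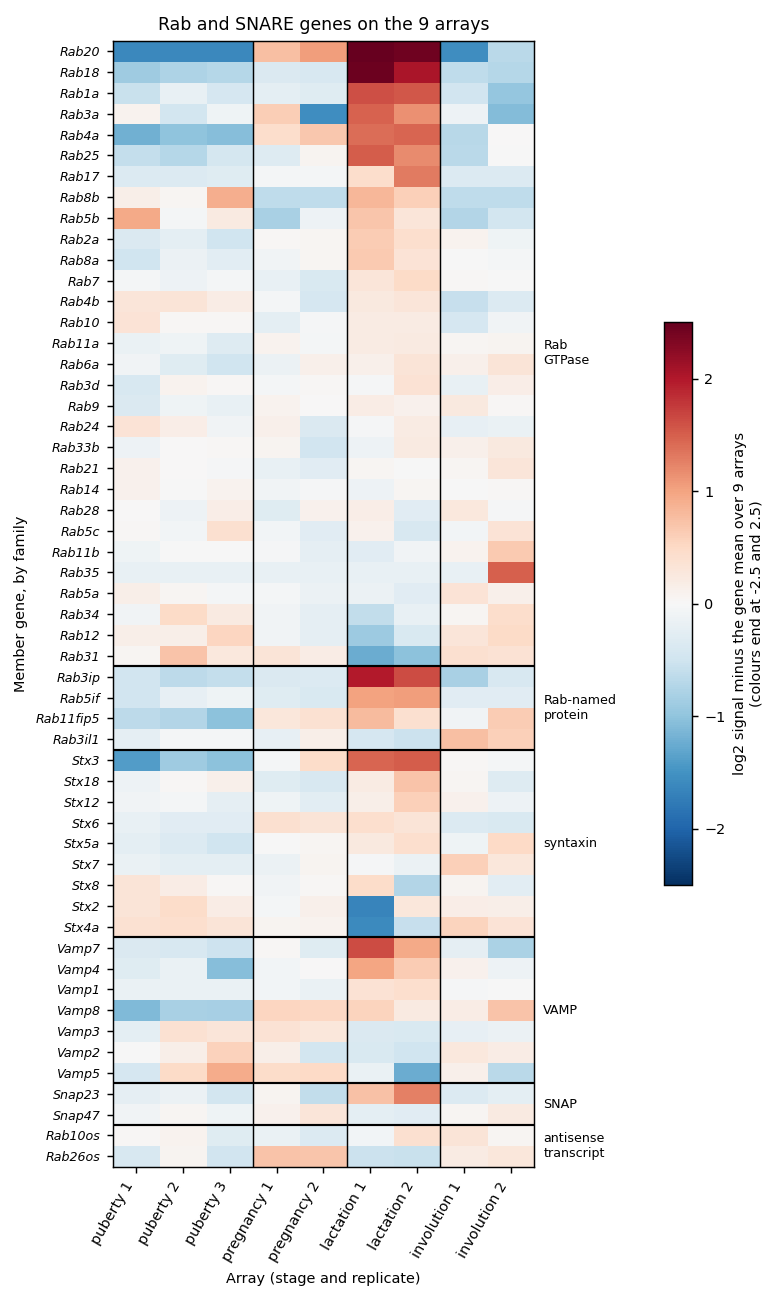
Log2 signal of each of the 54 tested member genes (rows, grouped by family) on each of the 9 arrays (columns, in stage order), after subtracting that gene's own average. Red is above and blue below it, colours end at -2.5 and 2.5, and Rab20, Rab18 and Rab1a are red on the 2 lactation arrays and on no involution array.

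Lactation, the stage of milk secretion, was compared with the mean of the other 3 stages. Among the tested members 23 (42.6%) were higher and 6 (11.1%) lower at lactation at an adjusted p under 0.05, and 25 passed in neither direction. Of all tested probe sets, 27.5% were higher and 24.3% lower. Of the 5548 probe sets with a mean signal above 100 in at least 1 stage, 1791 were higher and 1844 lower. Under that filter 19 members were higher and 5 lower. With the signals as deposited, without further scaling, 21 members were higher and 10 lower. The median log2 change was 0.27 over the members and 0.05 over all tested probe sets. Both lactation arrays lay above all 7 other arrays for 20 members (27.9% of all tested probe sets did so) and below all 7 for 8 (22% of all). Rises had a median of 2.14-fold, with 13 of 23 at 2-fold or more, and falls a median of 1.73-fold, with 2 of 6 at 2-fold or more. By family, 12 Rab GTPases rose and 2 fell of 30, 3 Rab-named proteins rose and 1 fell of 4, 4 syntaxins rose and 1 fell of 9, 3 VAMPs rose and 1 fell of 7, 1 SNAP rose of 2, and 1 antisense transcript fell of 2. The plot of log2 changes orders the 54 members by this comparison.

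**Figure D2:**
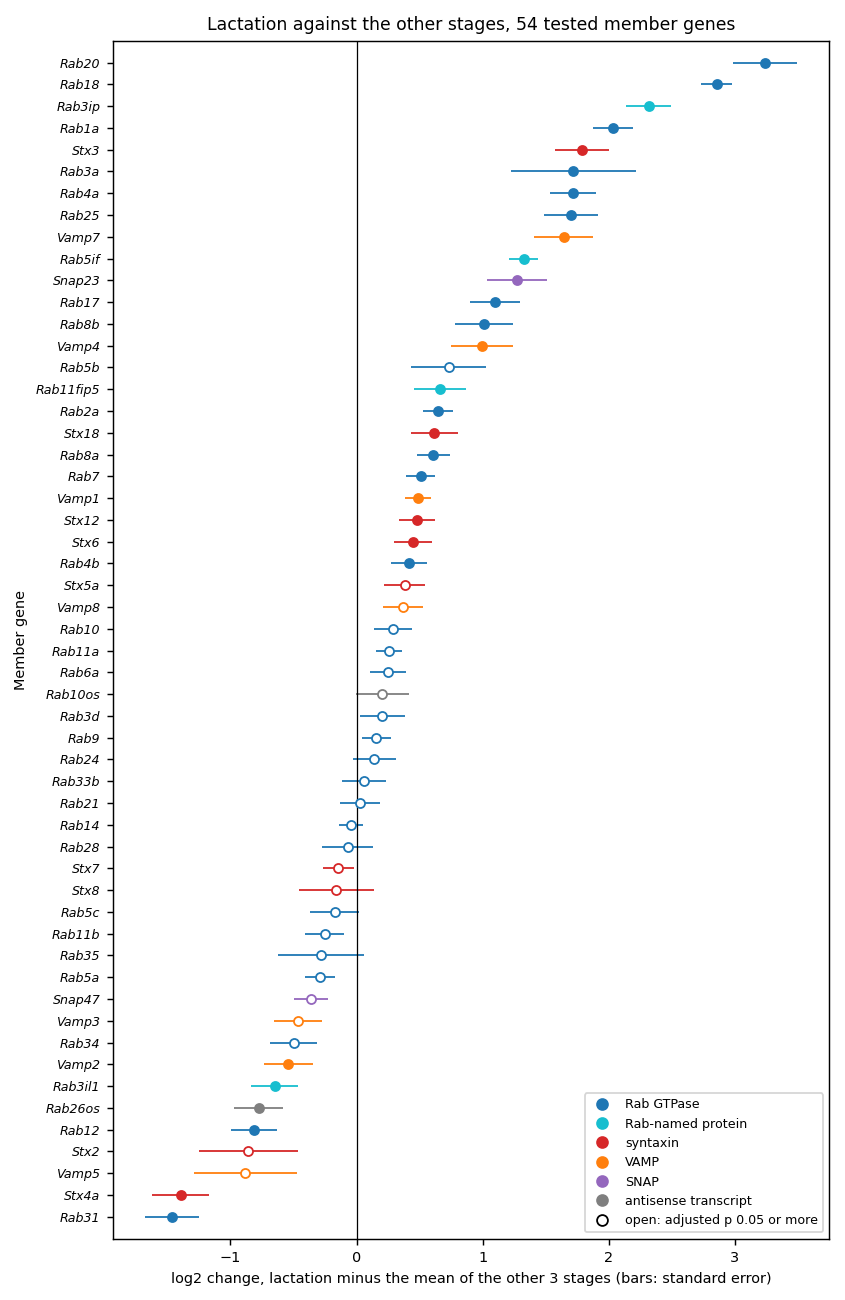
Log2 change at lactation minus the mean of the other 3 stages for each of the 54 tested member genes, with the standard error of the fit as bars, from 2 lactation arrays and 7 others. Filled points had an adjusted p under 0.05, and they run from Rab20 at 3.24 to Rab31 at -1.46.

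Members were assigned to routes with earlier results of these data known, so the shares per route here and below are descriptions only. Of 9 tested genes of the early secretory route, between the endoplasmic reticulum and the Golgi, 5 rose at lactation (55.6%, against 27.5% of all tested probe sets) and 0 fell (24.3% of all), with a median log2 change of 0.62. The 5 include Vamp4, whose second probe set passed in the other direction. Rab18, a Rab of the endoplasmic reticulum and the surface of lipid droplets, had signals of 391, 427 and 441 at puberty, 563 and 546 at pregnancy, 3938 and 2969 at lactation and 469 and 440.0 at involution. Both lactation arrays were far above a narrow band formed by the other 7. The change was 2.85 on the log2 scale (SE 0.125, adjusted p = 2.08e-06), or 7.23-fold. Rab1a, which directs traffic out of the endoplasmic reticulum to the Golgi, gave 137, 178 and 153 at puberty, 172 and 165 at pregnancy, 616 and 592 at lactation and 146 and 103 at involution. The puberty arrays of Rab1a overlapped both pregnancy and involution and lactation stood alone, with a log2 change of 2.03 (SE 0.162, adjusted p = 2.68e-05).

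Other genes of this route rose less. Rab2a, of the Golgi and its intermediate compartment, had 538 and 465 at lactation against 244 to 369 elsewhere, a log2 change of 0.65 (adjusted p = 0.00206). Stx18, a syntaxin of the endoplasmic reticulum, had 128 and 181 at lactation against 84.0 to 120.3 elsewhere, and its rise of 0.62 (adjusted p = 0.0232) was lost without lactation replicate 2 (0.37, adjusted p = 0.16). Vamp4, of the trans-Golgi network, had 231 and 181 at lactation against 55.7 to 126 elsewhere, and its rise of 0.99 (adjusted p = 0.00878) was lost without lactation replicate 1 (0.81, adjusted p = 0.125). The remaining members of the route, Rab6a, Rab33b and Stx5a of the Golgi and Rab34, did not pass, with log2 changes of 0.25, 0.06, 0.38 and -0.50.

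Of 14 tested members of the exocytic route and the plasma membrane, 8 rose (57.1%, against 27.5% of all tested probe sets) and 2 fell (14.3%, against 24.3%), with a median log2 change of 0.55. The 8 include Rab25, which is also of the apical recycling endosome but was not counted with the endosomal members. The falls were Stx4a and Vamp2, and the call of Vamp2 was lost in 13 of the 23 alternative settings. Stx3, a syntaxin of the apical membrane of polarised epithelia, had signals of 22.5, 32.0 and 29.2 at puberty, 57.3 and 81.4 at pregnancy, 162 and 169.8 at lactation and 60.6 and 57.6 at involution. The lactation arrays were highest, pregnancy and involution overlapped, and the 3 puberty arrays were lowest. Its log2 change at lactation was 1.79 (SE 0.217, adjusted p = 0.000221). Stx4a, which in polarised epithelia is best known from the basolateral membrane, went the other way, with 302, 307 and 289 at puberty, 242 and 245 at pregnancy, 76.1 and 154 at lactation and 339 and 292 at involution. Both lactation arrays of Stx4a were below every other array although they differed from each other, and the log2 change was -1.39 (SE 0.226, adjusted p = 0.00105).

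Rab25, an epithelial relative of Rab11 of the apical recycling endosome, had 77.1, 71.5 and 86.4 at puberty, 93.4 and 123 at pregnancy, 333 and 266 at lactation and 73.0 and 116 at involution. Only the lactation arrays left the range of the other stages, by 1.70 on the log2 scale (SE 0.215, adjusted p = 0.00027). Snap23, the SNAP of non-neuronal cells, had 61.8, 65.7 and 52.4 at puberty, 75.6 and 47.3 at pregnancy, 119.5 and 173 at lactation and 57.2 and 60.8 at involution, a rise of 1.27 (SE 0.239, adjusted p = 0.0023). Its relative Snap47 had 115 and 112 at lactation against 126 to 167 elsewhere and did not pass (-0.36, adjusted p = 0.0527).

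Rab3a, a Rab of regulated exocytosis in neurons and endocrine cells, had 97.0, 66.9 and 85.3 at puberty, 139 and 31.2 at pregnancy, 255 and 201 at lactation and 83.7 and 43.1 at involution. Lactation was highest, but the 2 pregnancy arrays bracketed all puberty and involution values. The rise of 1.72 had a wide error (SE 0.497, adjusted p = 0.0184), and the F test across stages missed the threshold (adjusted p = 0.0788). It was lost without lactation replicate 1 (adjusted p = 0.196), lactation replicate 2 (adjusted p = 0.123) or involution replicate 2 (adjusted p = 0.0527). Rab3d, the Rab3 of secretory granules in exocrine glands, had 213 and 281 at lactation against 165 to 244 elsewhere, a log2 change of 0.20 (SE 0.179, adjusted p = 0.364).

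Rab8a, which carries vesicles from the Golgi and recycling endosomes to the plasma membrane, had 743 and 604 at lactation against 335 to 493 elsewhere (0.61, adjusted p = 0.0045, and 0.0517 without lactation replicate 1). Rab8b, its close relative, had 34.1, 31.8 and 57.9 at puberty, 19.5 and 15.4 at pregnancy, 55.3 and 46.4 at lactation and 10.1 and 8.32 at involution. Lactation and puberty overlapped for Rab8b while the other stages lay at the floor, so its rise was at least 2.02-fold (adjusted p = 0.00607, and 0.0816 without lactation replicate 1). Rab17, an epithelial Rab of transcytosis, had 34.1 and 61.7 at lactation against at most 24.4 on any other array and the floor at involution, at least 2.14-fold higher (adjusted p = 0.0019). Vamp1, a synaptobrevin of neurons, was 28.7 and 29.9 at lactation against 8.30 to 22.2 elsewhere, at least 1.40-fold higher (adjusted p = 0.00422). A dimmer Vamp1 probe set, too low to be tested, had 8.40 and 9.11 at lactation against 5.30 to 24.4 elsewhere. Rab17 and Rab8b lost their calls with the floor at 50, and Vamp1 with the floor at 50, with no floor and with a constant of 16 added instead.

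Among the other vesicle SNAREs of the cell surface, Vamp2, a synaptobrevin, had 304, 339 and 458 at puberty, 338 and 222 at pregnancy, 235 and 218 at lactation and 369 and 350.1 at involution. Lactation and the second pregnancy array overlapped. Its change of -0.54 had the highest adjusted p of the 6 falls (adjusted p = 0.0443). Among the settings that lost it were leaving out puberty replicate 2 (adjusted p = 0.0609), pregnancy replicate 1 (adjusted p = 0.0775), lactation replicate 1 (adjusted p = 0.171), lactation replicate 2 (adjusted p = 0.24), involution replicate 1 (adjusted p = 0.101) or involution replicate 2 (adjusted p = 0.0773). Vamp5, best known from muscle, had 50.3 and 24.1 at lactation against 35.6 to 108 elsewhere and did not pass (-0.88, SE 0.407, adjusted p = 0.0997). Stx2, another plasma membrane syntaxin, gave 59.8 and 228 on the lactation arrays, which disagreed with each other, and Rab10, a Rab of surface delivery, gave 214 and 215. Neither passed (adjusted p = 0.0992 and 0.133).

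**Figure D3:**
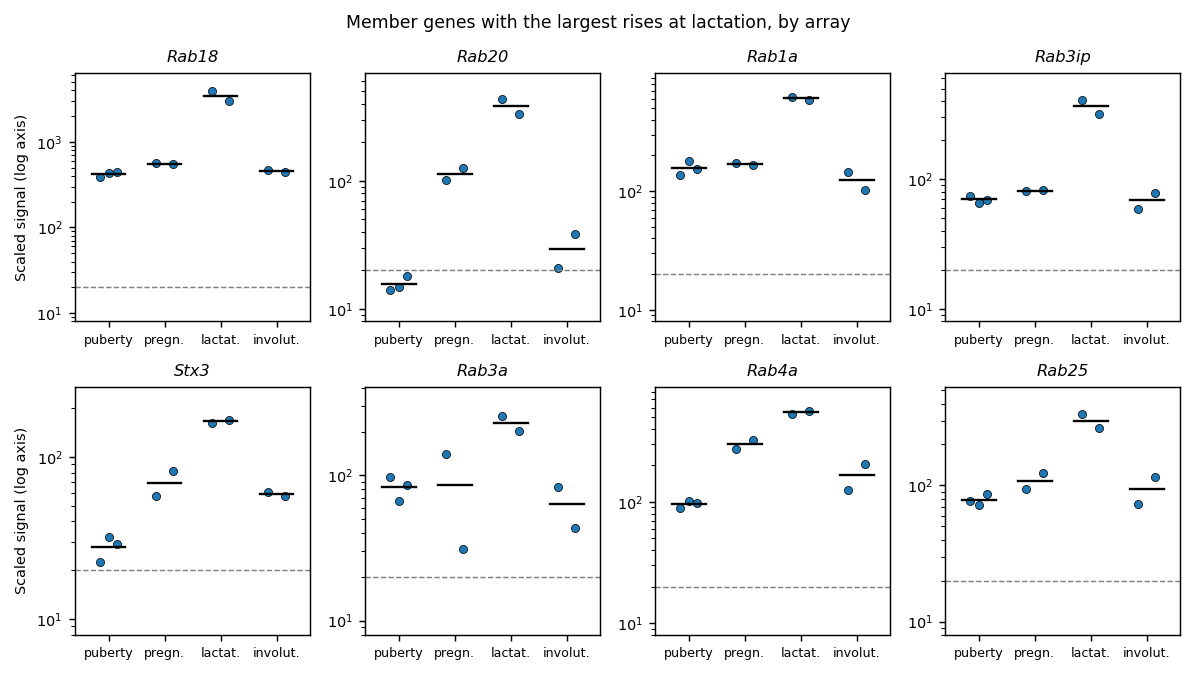
Scaled signal on each array (points, log axis) and stage mean (line) of Rab18, Rab20, Rab1a, Rab3ip, Stx3, Rab3a, Rab4a and Rab25 at puberty (3 arrays), pregnancy, lactation and involution (2 arrays each), with the floor of 20 dashed. In each panel both lactation points lie above all others, and the 2 pregnancy points of Rab3a, 139 and 31.2, are far apart.

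Endosomal and lysosomal members held the gene with the largest rise, but most did not pass. Of 22 tested, 7 rose (31.8%, near the 27.5% of all tested probe sets), 1 fell (4.55%, against 24.3%) and 14 passed in neither direction, with a median log2 change of 0.15. Rab20, a Rab of phagosomes and early endosomes, had signals of 14.1, 14.8 and 18.2 at puberty, 102 and 126 at pregnancy, 431 and 330.2 at lactation and 20.9 and 38.2 at involution. The stages followed each other without overlap, from the floor at puberty to lactation and nearly back at involution. With puberty at the floor, lactation was at least 9.43-fold above the other stages between means of log2 values (3.24, SE 0.253, adjusted p = 2.44e-05). Rab4a, of rapid recycling to the surface, had 88.7, 102 and 98.0 at puberty, 275 and 324 at pregnancy, 536 and 559 at lactation and 126 and 206 at involution. No 2 stages of Rab4a overlapped, and its rise was 1.72 (SE 0.183, adjusted p = 0.000111).

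Vamp7, a VAMP of late endosomes and lysosomes, had 26.9, 26.2 and 24.4 at puberty, 35.7 and 28.2 at pregnancy, 107 and 66.9 at lactation and 29.6 and 15.2 at involution. Its rise on this probe set was 1.64 (SE 0.233, adjusted p = 0.000504). Rab7, the Rab of late endosomes, had 303 and 338 at lactation against 187 to 249 elsewhere (0.51, adjusted p = 0.00537). Stx12, of recycling endosomes, had 351 and 478 against 263 to 341 (0.48, adjusted p = 0.0219, but 0.25 and adjusted p = 0.149 without lactation replicate 2). Stx6, of the trans-Golgi network and endosomes, had 123 and 115 at lactation and nearly the same at pregnancy, 122 and 115, against 71.0 to 81.2 at puberty and involution, so its call at lactation (0.45, adjusted p = 0.0329, and 0.0601 without puberty replicate 2) was no rise above pregnancy.

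Rab4b, the paralog of Rab4a, had 201 and 210.1 at lactation and 193 to 213 at puberty, and lay lower at pregnancy (164 and 127) and involution (113 and 133). Its call (0.42, adjusted p = 0.0371) was therefore no rise above puberty, and it was lost without puberty replicate 1, 2 or 3 (adjusted p = 0.0572, 0.0592 and 0.0606), pregnancy replicate 2 (0.0511) or lactation replicate 1 or 2 (0.089 and 0.12). Rab31, which moves cargo between the trans-Golgi network and endosomes, had the largest fall, with 50.2, 79.5 and 58.7 at puberty, 60.7 and 55.6 at pregnancy, 20.6 and 23.8 at lactation and 64.6 and 62.4 at involution. Both lactation arrays lay just above the floor and below all others, with a log2 change of -1.46 (SE 0.214, adjusted p = 0.000599) that was lost only with the floor at 50.

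Vamp8, a VAMP of endosomes and of secretory granules in exocrine cells, followed a course of its own. Its signals were 449.5, 544 and 539.6 at puberty, 1397 and 1382 at pregnancy, 1408 and 1126 at lactation and 1095 and 1570 at involution. The 3 later stages overlapped and all lay above puberty, and lactation did not pass against the mean of the others (0.37, adjusted p = 0.0832). The suffix of its probe set (_f_at) marks probes that can read several similar sequences. Vamp3, cellubrevin of recycling endosomes, had 85.2 and 84.4 at lactation against 92.7 to 143 elsewhere (-0.46, adjusted p = 0.0691).

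The early endosome Rabs Rab5a and Rab5c (log2 -0.29 and -0.17), the recycling Rabs Rab11a and Rab11b (0.26 and -0.25) and Rab9 and Rab14 (0.16 and -0.04) did not pass at lactation. Rab14 stayed between 511 and 601 on all 9 arrays. The same held for Rab21 (0.03), Rab24 (0.14) and the late endosomal syntaxins Stx7 and Stx8 (-0.14 and -0.16). Rab5b had a larger change with a larger error (0.73, SE 0.299, adjusted p = 0.069), and Rab35 was at the floor on every array except involution replicate 2 (63.7).

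Of the 9 tested members with no route assigned, 3 rose and 3 fell (33.3% each way, against 27.5% and 24.3% of all tested probe sets). Rab3ip (also called Rabin8), an exchange factor that activates Rab8, had 74.5, 66.0 and 69.1 at puberty, 81.1 and 82.2 at pregnancy, 412 and 321 at lactation and 59.2 and 78.6 at involution. Lactation stood alone, with a log2 change of 2.32 (SE 0.177, adjusted p = 2.2e-05). Rab5if, named as a Rab5-interacting factor, had 568, 686 and 733 at puberty, 645 and 608 at pregnancy, 1590 and 1639 at lactation and 647 and 653 at involution (1.32, SE 0.116, adjusted p = 4.13e-05). Rab11fip5, an effector of Rab11, had 340.3 and 259 at lactation, close to pregnancy (239 and 254) and to 1 involution array (185 and 304) but above puberty (95.6 to 125). Its call at lactation (0.66, adjusted p = 0.0254) was lost without pregnancy replicate 1 or 2 (adjusted p = 0.0632 and 0.055) or lactation replicate 1 or 2 (0.248 and 0.0617).

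Rab3il1, an exchange factor related to Rab3ip, moved opposite to it. It had 43.3, 48.9 and 48.5 at puberty, 43.5 and 55.5 at pregnancy, 37.7 and 34.8 at lactation and 84.3 and 75.7 at involution. Lactation was lowest and involution highest, and the change at lactation was -0.65 (SE 0.185, adjusted p = 0.0171). Rab12, which sends recycling cargo to lysosomes, had 199.8, 199.6 and 261 at puberty, 168 and 153 at pregnancy, 95.7 and 138 at lactation and 221 and 250.05 at involution, a change of -0.81 (SE 0.179, adjusted p = 0.00505) that was lost without lactation replicate 1 (-0.55, adjusted p = 0.0617). The antisense transcript Rab26os was 31.4, 43.4 and 29.8 at puberty, 68.1 and 66.9 at pregnancy, 28.4 and 28.2 at lactation and 47.4 and 50.4 at involution (-0.77, SE 0.193, adjusted p = 0.00946). The lactation arrays of Rab26os lay just below the lowest puberty array, and pregnancy was highest. Rab10os (0.20) and Rab28 (-0.07) did not pass.

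**Figure D4:**
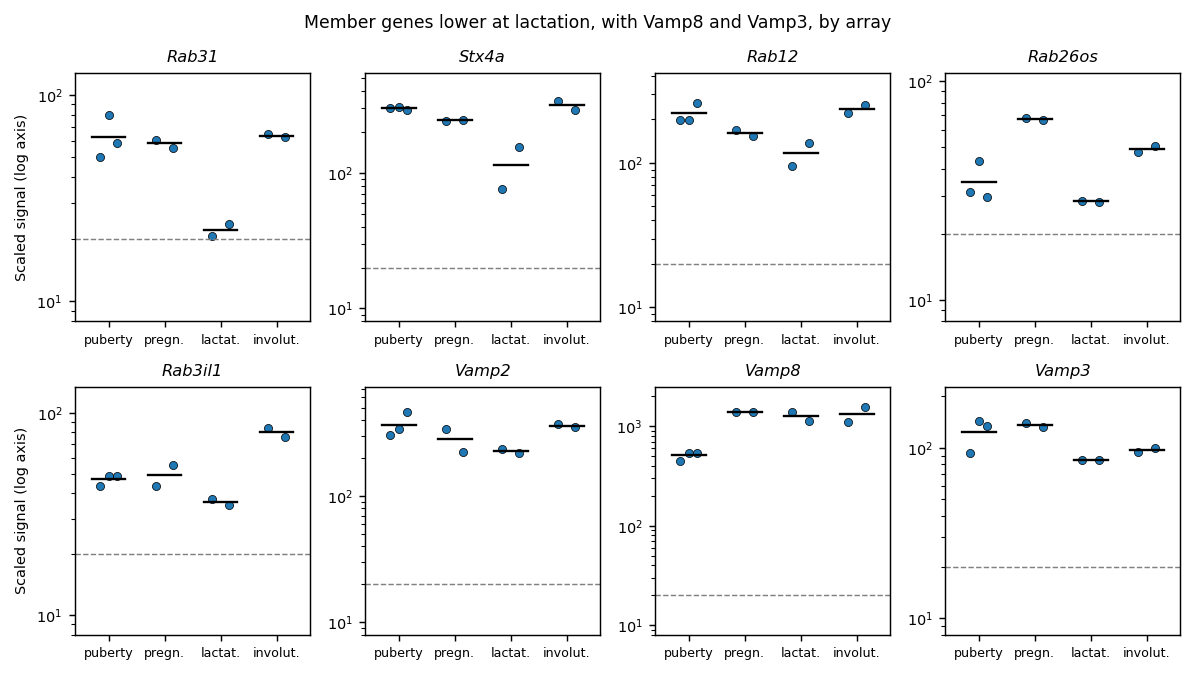
Scaled signal on each array (points, log axis) and stage mean (line) of the 6 members called lower at lactation (Rab31, Stx4a, Rab12, Rab26os, Rab3il1 and Vamp2) and of Vamp8 and Vamp3, with the floor of 20 dashed. Stx4a shows 2 lactation points, 76.1 and 154, below all others, and Vamp8 shows puberty below the 3 later stages.

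Pregnancy was set against puberty to ask which members had already changed by mid-pregnancy. Of the 54, 6 (11.1%) were higher and 1 (1.85%) lower at pregnancy, where 6.21% of all tested probe sets were higher and 5.22% lower. The 6 were Rab20 (at least 5.66-fold, adjusted p = 0.00149), Rab4a (log2 1.64, SE 0.208, adjusted p = 0.00244), Vamp8 (1.45, SE 0.181, adjusted p = 0.0023), Stx3 (1.31, SE 0.246, adjusted p = 0.011), Rab11fip5 (1.13, SE 0.235, adjusted p = 0.0166) and Rab26os (0.97, SE 0.219, adjusted p = 0.0231). Stx3 lost its call without pregnancy replicate 2 (adjusted p = 0.107). Rab11fip5 lost it without puberty replicate 3, pregnancy replicate 1 or 2, or lactation replicate 1 or 2 (adjusted p = 0.0553, 0.101, 0.152, 0.0526 and 0.0553), and Rab26os without puberty replicate 1 or 3 or pregnancy replicate 1 or 2 (0.0764, 0.0756, 0.106 and 0.119). Rab20, Rab4a and Vamp8 kept theirs without each array, and without pregnancy replicate 2 the rises numbered 3. The single fall, Rab8b (at least 1.99-fold, adjusted p = 0.0442), was lost in 14 of the 23 alternative settings, and of the arrays left out in turn only puberty replicate 2 kept it (adjusted p = 0.0553 to 0.229 without the others).

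From day 14 of pregnancy to day 10 of lactation more members rose than fell. In this comparison 20 members (37%) were higher and 4 (7.41%) lower at lactation, where 21.6% of all tested probe sets were higher and 19.7% lower, and the median log2 change was 0.25 over the members and 0.07 over all. The largest rises were Rab18 (2.62, SE 0.155, adjusted p = 1.86e-05) and Rab3ip (2.15, SE 0.219, adjusted p = 0.000193). Rab20 and Rab4a, already higher at pregnancy, rose again, by 1.74 and 0.87 (adjusted p = 0.00283 and 0.015), although Rab4a did not pass without pregnancy replicate 1 (0.103) or lactation replicate 1 or 2 (0.0762 and 0.0857). Stx3 rose by 1.28 (adjusted p = 0.00581). Vamp8 had no further change that passed (-0.14, SE 0.198, adjusted p = 0.597), and Stx6 was level (0.00, SE 0.185, adjusted p = 1).

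Falls between lactation and pregnancy were Rab31 (-1.39, SE 0.266, adjusted p = 0.00367), Rab26os (-1.25, SE 0.24, adjusted p = 0.0037), Stx4a (-1.17, SE 0.281, adjusted p = 0.0106) and Vamp3 (-0.68, SE 0.234, adjusted p = 0.0456). Stx4a did not pass without pregnancy replicate 1 or 2 (adjusted p = 0.0662 and 0.0659). Vamp3 was lost in 12 alternative settings, and of the single arrays only leaving out puberty replicate 1 kept it (adjusted p = 0.054 to 0.163 without the others). Without pregnancy replicate 2 the rises numbered 12 and the falls 2, and without pregnancy replicate 1 the falls again numbered 2.

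Involution, 4 days after weaning, was compared with lactation to see how far the pattern turned back. At involution 8 members (14.8%) were higher and 19 (35.2%) lower, where 22.1% of all tested probe sets were higher and 23% lower, and the median log2 change was -0.17 over the members and -0.03 over all. This comparison, the one with pregnancy and the one with the mean of the other stages share the lactation arrays. The largest falls were Rab20 (-3.74, SE 0.314, adjusted p = 5.38e-05) and Rab18 (-2.91, SE 0.155, adjusted p = 9.52e-06), followed by Rab3ip (-2.41) and Rab1a (-2.30). Rab4a fell by 1.76 (adjusted p = 0.000425) and Stx3 fell by 1.49 (adjusted p = 0.00239), and both stayed above all 3 puberty arrays at involution. Stx6, which had not changed between lactation and pregnancy, fell by 0.72 (adjusted p = 0.013).

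Higher at involution than lactation were Stx4a (1.54, SE 0.281, adjusted p = 0.00249), Rab31 (1.52, SE 0.266, adjusted p = 0.00207), Rab3il1 (1.14, SE 0.229, adjusted p = 0.0041), Rab12 (1.03, SE 0.222, adjusted p = 0.00568) and Rab26os (0.79, SE 0.24, adjusted p = 0.0264), together with Rab11b (0.56), Stx7 (0.53) and Rab5a (0.46). For Stx7, a late endosomal syntaxin, involution was the highest stage, with 422 and 342 against 274 and 254 at lactation and 237 to 248 at puberty. Rab3il1 at involution also exceeded all 7 other arrays. Rab26os did not pass without lactation replicate 1 or 2 or involution replicate 1 or 2 (adjusted p = 0.0598, 0.0583, 0.0564 and 0.0793), Stx7 without lactation replicate 2 or involution replicate 1 (0.0649 and 0.076), and Rab5a without puberty replicate 2, lactation replicate 2 or involution replicate 1 (0.0563, 0.0627 and 0.0919). Rab11b, with 479.8 and 716 at involution against 374 and 424 at lactation, was lost in 15 settings and kept among the left-out arrays only without involution replicate 1 (adjusted p = 0.0599 to 0.197 without the others). Without lactation replicate 2 the rises numbered 5, and after quantile normalization 5 members were higher and 21 lower. Markers of white adipocytes, macrophages, T cells and B and plasma cells moved in the same direction as these rises. Other lists were mixed or did not. Basal epithelium had 0 markers higher and 2 lower of 3, and skeletal muscle had 0 of 7 passing either way. Endothelium had 2 higher and 1 lower of 5, luminal epithelium 2 higher and 1 lower of 8, and milk secretion 0 higher and 4 lower of 6. White adipocyte markers summed to 10379 to 12303 at involution, against 1890 to 2314 at lactation (5 of 5 higher), and macrophage markers to 5361 to 6910 at involution, against 1415 to 2391 at lactation (4 of 5 higher). T cell markers summed to 288 to 441 at involution and 47.8 to 53.6 at lactation (4 of 4 higher), and B cell and plasma cell markers to 2563 to 2915 at involution and 299 to 666 at lactation (4 of 4 higher). The part of any of these cell types in the values was not tested.

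Closely related Rab genes were set side by side as 7 pairs chosen after their values had been seen. The log2 ratio of Rab3a to Rab3d was -0.48 and 0.26 at lactation, against -2.84 to -0.60 on the other 7 arrays. For Rab4a over Rab4b it was 1.41 and 1.41 at lactation, against -1.24 to 1.35 elsewhere, the upper end being a pregnancy array. Rab11a over Rab11b gave 0.08 and 0.24 against -0.83 to -0.06. For Rab8a over Rab8b (3.70 and 3.75 at lactation, 2.78 to 4.62 elsewhere) and for the Rab5 genes the ranges overlapped. A two-sided exact permutation test over the 36 splits of the arrays gave p = 0.0556, the smallest this design allows, for each of the 3 pairs whose ranges did not overlap (adjusted p = 0.13 over the 7 pairs), and p = 0.111 to 0.667 for the others. No pair passed.

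Several members were read by more than 1 probe set, which checks a call within the same arrays but is no independent replicate. Of 17 such genes, 14 had a next brightest probe set that could be tested, and for 9 its change at lactation had the same sign. Both probe sets passed in the same direction for Rab3ip (2.32 and 1.91), Stx3 (1.79 and 1.68), Rab7 (0.51 and 0.91) and Rab31 (-1.46 and -0.80). Vamp4 passed in opposite directions, at 0.99 (231 and 181 at lactation) and at -0.99 (adjusted p = 0.00512, with 22.5 and 28.4 at lactation against 37.8 to 82.9 elsewhere), so no direction can be given for the gene. For Vamp7 the second probe set lay near the floor and did not follow the first (-0.22, adjusted p = 0.175), and between involution and lactation it was 0.65 (adjusted p = 0.0109) where the first was -1.80. Rab6a and Rab10, which had not passed, did so on their second probe sets (0.71 and 0.56, adjusted p = 0.000874 and 0.0248). For Rab10 this was no rise above puberty. Its second probe set had 137 and 184 at lactation, 157 to 180 at puberty and 68.4 and 53.9 at involution. Rab2a (adjusted p = 0.00206) and Vamp2 passed only on the brighter one. The plot of both probe sets shows where they differ.

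**Figure D5:**
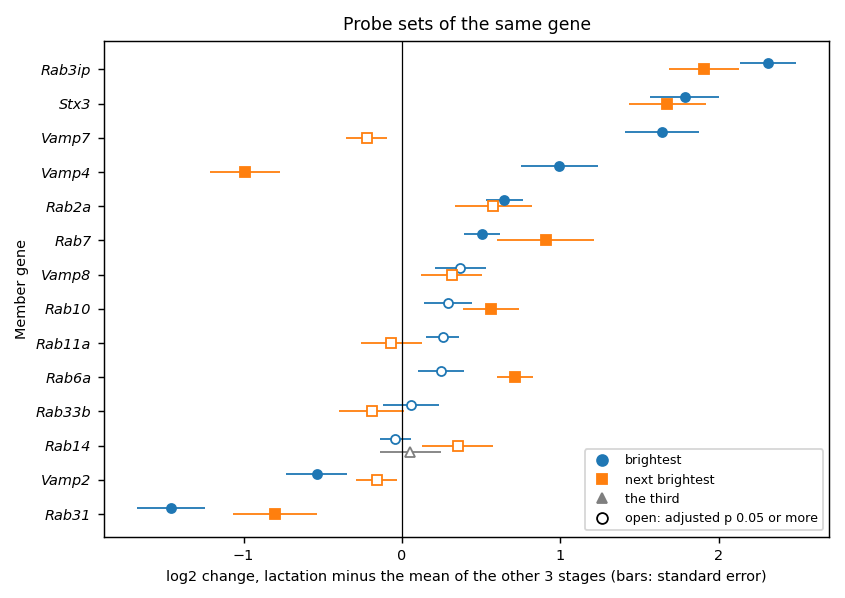
Log2 change at lactation minus the mean of the other 3 stages on the brightest (blue circles), next brightest (orange squares) and the third (grey triangle) probe set of the 14 member genes with more than 1 tested, with the standard error as bars. Vamp4 has its 2 filled points on opposite sides of 0, at 0.99 and -0.99, while both points of Rab3ip, Stx3, Rab7 and Rab31 are filled and lie on 1 side.

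The machinery that works with Rabs and SNAREs was read through a list of 92 genes outside the name rule, of which 46 were on the array and 43 tested. The list was drawn up with earlier results of these data known, so its shares are descriptions only. At lactation 20 were higher (46.5%, against 27.5% of all tested probe sets) and 7 lower (16.3%, against 24.3%), with a median log2 change of 0.34, and 21 passed the F test (48.8%, against 51.6%). Without lactation replicate 1 the counts were 16 higher and 4 lower, and without lactation replicate 2 they were 15 and 5. Of 10 other SNAREs, 4 rose (Ykt6, Bet1, Sec22b and Gosr2) and 2 fell (Vti1b and Use1). The other 4, Vti1a, Gosr1, Bet1l and Bnip1, did not pass, with log2 changes of 0.34, 0.08, 0.00 and 0.08. The fall of Vti1b (-0.34, adjusted p = 0.0457) was lost in 14 of 21 alternative settings, 7 of them a left-out array (adjusted p = 0.0552 to 0.138). The fall of Use1 (-0.51, adjusted p = 0.0177) was lost without lactation replicate 1 (adjusted p = 0.117) or 2 (adjusted p = 0.0939), and the rise of Gosr2 (0.66) without lactation replicate 2 (adjusted p = 0.0573). Of 16 effectors and tethers 8 rose and 3 fell, and of 6 Rab GAPs, which switch Rabs off, 2 rose. Of 5 genes of Rab prenylation, GDI and exchange 2 rose and 1 fell. Of 3 SM proteins, which hold SNAREs for assembly, 2 rose. The rises of Uso1 and Rabggta were each lost in 12 of 21 alternative settings and that of Golga5 in 4. Rabgap1l, Tbc1d14, Exoc4 and Syt7 lost theirs in 2 settings each. Mlph, Myo5b, Cplx1, Cplx2, Rabac1, Stxbp2 and Vps45 kept theirs in every setting that gave a value. Of NSF and its adaptors, which take spent SNARE complexes apart, Nsf (1.15) and Napb (0.74) rose and Napa (-0.58) fell, and Nsf did not pass without lactation replicate 1 (adjusted p = 0.0908) or 2 (adjusted p = 0.131), nor Napa without lactation replicate 1 (adjusted p = 0.111).

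Ykt6, a lipid-anchored SNARE, had 47.9, 52.8 and 48.5 at puberty, 47.8 and 37.3 at pregnancy, 116 and 124 at lactation and 16.98 and 18.4 at involution, a rise of at least 3.45-fold with involution at the floor (log2 1.79, SE 0.179, adjusted p = 8.15e-05). It was highest at lactation and below the floor at involution. Myo5b, the motor that moves Rab11 and Rab25 vesicles, had 165 and 164 at lactation against 17.6 to 84.5 elsewhere (1.78, SE 0.288, adjusted p = 0.00102), and Rabac1, a prenylated Rab acceptor, had 4660 and 4354 against 1283 to 1881 (1.51, SE 0.174, adjusted p = 0.00017). The largest falls were Rin2, an exchange factor for Rab5, with 175 and 241 at lactation against 332 to 931 (-1.51, SE 0.186, adjusted p = 0.000241), and Syt11, with 20.2 and 11.4 against 32.5 to 73.6 (-1.25, SE 0.178, adjusted p = 0.000515). Sytl4, an effector of Rab27 and Rab3, followed with 25.3 and 28.0 against 30.6 to 48.5 (-0.59, adjusted p = 0.0219, lost without lactation replicate 1 at 0.0778 and with no floor, the floor at 50 or a constant added).

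Promoter sequence was read from RefSeq's annotation of the build GRCm38.p6 for 53 of the 60 members, in 65 promoters of 250 bases before and 50 after the start. On both strands 3 motifs were searched and counted separately, also where they overlapped: the GAS element TTCNNNGAA bound by STAT factors (STAT5 is the prolactin-activated one), the E-box CACGTG and the CCAAT box. A GAS match stood in 5 of 65 member promoters (7.69%) and in 7.02% of the 32851 promoters of the table. It stood in 1 of 22 promoters of members higher at lactation (4.55%) and in 0 of 9 of members lower at lactation. Among members that passed in neither direction it stood in 4 of 28 promoters (14.3%). An E-box stood in 13.8% of member promoters and 6.02% of all, and a CCAAT box in 43.1% and 33.8%. Member promoters had a median GC content of 61.2% against 52.4% for all, so base composition differed as well. A match is a description of these letters and not a binding site.

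The 250 bases before the start are shown for Rab20 (chr8:11478641-11478890, minus strand), the member with the largest rise, for Rab25 (chr3:88548280-88548529, minus strand), the member higher at lactation that holds a GAS match, for Vamp8 (chr6:72390668-72390917, minus strand), higher from pregnancy on, and for Stx4a (chr7:127841558-127841807, plus strand), lower at lactation. Each is read 5′ to 3′ in the direction of the gene, and capitals mark the matches, an E-box from position -46 in Rab20, GAS elements from -219 in Rab25 and -121 in Vamp8 and a CCAAT box from -186 in Stx4a, where -1 is the base before the start.
Rab20: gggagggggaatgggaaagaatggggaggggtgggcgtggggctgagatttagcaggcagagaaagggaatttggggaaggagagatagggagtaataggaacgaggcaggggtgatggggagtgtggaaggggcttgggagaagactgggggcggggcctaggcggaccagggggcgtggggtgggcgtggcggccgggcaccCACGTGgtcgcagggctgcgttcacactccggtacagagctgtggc
Rab25: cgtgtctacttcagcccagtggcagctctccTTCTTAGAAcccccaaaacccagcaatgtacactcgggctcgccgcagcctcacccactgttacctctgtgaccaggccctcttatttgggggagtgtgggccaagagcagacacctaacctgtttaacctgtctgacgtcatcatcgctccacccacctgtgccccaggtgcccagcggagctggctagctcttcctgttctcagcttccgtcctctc
Vamp8: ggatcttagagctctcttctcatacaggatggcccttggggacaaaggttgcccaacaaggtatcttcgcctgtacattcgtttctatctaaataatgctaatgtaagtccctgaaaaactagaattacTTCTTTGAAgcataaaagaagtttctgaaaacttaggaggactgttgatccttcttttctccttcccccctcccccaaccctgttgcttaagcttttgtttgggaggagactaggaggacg
Stx4a: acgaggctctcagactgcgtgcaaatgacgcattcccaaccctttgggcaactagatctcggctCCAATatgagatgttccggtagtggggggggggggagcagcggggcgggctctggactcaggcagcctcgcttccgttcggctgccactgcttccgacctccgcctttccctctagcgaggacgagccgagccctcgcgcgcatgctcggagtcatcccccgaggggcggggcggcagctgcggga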

How the data were processed

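RNA of 9 whole glands was hybridised to 9 arrays. The authors deposited linear signal intensities per probe set, which the submitters' processing notes credit to MAS5, with no version given in the sources used here. The trimmed means (2% off each end) of the deposited arrays were equal at 125.1, so each array had been scaled before deposit, and medians were 48.1 to 53.5. The per-gene normalization that the methods describe for GeneSpring is not in these values. Here the 66 controls were dropped, a factor per array (0.947 to 1.06) brought all medians together, lower signals were raised to a floor of 20, and the analysis ran on log2 values. Printed signals carry no floor. Probe sets with a stage mean above 20 in at least 1 stage were tested (9782, with 2640 left out). The number of arrays limits the precision.

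One model with the 4 stages was fitted to all 9 arrays with limma 3.58.1 in R 4.3.3 (lmFit, eBayes with a trend), with Benjamini-Hochberg adjustment over every tested probe set and a threshold of 0.05. Contrasts were lactation against the averaged other stages, pregnancy against puberty, lactation against pregnancy and involution against lactation. The fit was tested on simulated data, with 100 changed probe sets per size of change among 9782. At a log2 change of 1, 49% were recovered in the contrast of lactation with the other stages and 26% by the F test. At a log2 change of 2, 72% and 61% were recovered, with 5 and 4 false calls. A member that did not pass may therefore still have changed. The data held many more changed probe sets than the simulation, so its shares need not carry over. The platform annotation gives 1 symbol to 10833 probe sets, several to 396 and lists 1193 not at all, and no gene was named from a probe set with several. Of the 10833, 10817 were found by Entrez ID in RefSeq's table. Stages and replicate numbers come from the sample titles. The rule for members uses names and no values. It was set, like the routes and the partner and marker lists, with earlier results of these data known. The rule for named genes took the 6 largest rises and falls at lactation, the 2 largest changes each way in the other contrasts, the 3 members with the highest mean signal, all VAMPs and SNAPs, Rab3a, Rab3d, Rab18, Stx3 and Stx4a, and the 3 largest changes each way among partners; values are given array by array for those the results turn on and as ranges for the rest, and other genes named were chosen after their values were seen. Alternatives covered scaling, floor, filter, model, replicate block, probe set choice and leaving out each array, 23 settings in all, and for the partner genes they were added after seeing the data. Figures were drawn with matplotlib 3.10.9.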

Additional observations from a re-analysis of the deposited data

How the results depend on the processing

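The counts of members passing a test mostly stayed within 1.5 times the reported count under the 23 alternative settings. With all arrays kept, exceptions were the members lower at lactation than the other stages, 10 with values as deposited instead of 6, the members higher at involution than lactation, 5 after quantile normalization instead of 8, and the single member lower at pregnancy than puberty (Rab8b), where the count was 0 with no floor, the floor of 50, the constant of 16 added, no filter, the filter of 100, the plain analysis of variance or the replicate block, and 2 with the next brightest probe set. The cause was not tested.

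Leaving out each array in turn gave 25 to 29 members past the F test, 17 to 24 higher and 5 to 9 lower at lactation than the other stages, 3 to 8 higher and 0 to 1 lower at pregnancy than puberty, 12 to 19 higher and 2 to 5 lower at lactation than pregnancy, and 5 to 8 higher and 16 to 20 lower at involution than lactation. Beyond 1.5 times the reported count were the 3 higher at pregnancy than puberty and the 12 higher at lactation than pregnancy without pregnancy replicate 2, the 2 lower at lactation than pregnancy without pregnancy replicate 1 or 2, the 5 higher at involution without lactation replicate 2, and the 0 lower at pregnancy when any single array other than puberty replicate 2 was left out. A stage left with 1 array was assumed to vary like the others. Of the 29 calls at lactation, 18 were kept without each array, and 10 of the 23 rises and 3 of the 6 falls passed in the same direction in every setting that gave a value.

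Replicate numbers showed no strong pairing of the arrays. Deviations from the stage means correlated at -0.15 to 0.05 over 12 pairs of arrays with the same number and at -0.11 to 0.15 over 18 other pairs. With the replicate block, 25 members passed the F test, 19 were higher and 6 lower at lactation than the other stages, 4 higher and 0 lower at pregnancy than puberty, 17 higher and 3 lower at lactation than pregnancy, and 8 higher and 17 lower at involution than lactation.

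Of 4900 single values under an alternative, 4535 kept their direction and side of the threshold, 241 called values no longer passed, 120 came to pass and 4 reversed. The 4 were on the next brightest probe sets of Vamp4 (-0.99 at lactation against the other stages) and of Vamp7 (-0.22 in the same comparison, -0.026 at lactation against pregnancy and 0.65 at involution against lactation). Signals at the floor carry only a bound, and the number of arrays limits the precision.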
